A study of Mus musculus with 6 samples.

Results

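The RNA described here came from the 3 IgG control tumours of a study of 6 xenografts. They were raised subcutaneously in athymic nude mice from STS26T, an established human line of malignant peripheral nerve sheath tumour (MPNST). Their mice had received an IgG isotype control antibody for 3 weeks, with intraperitoneal doses of 10 mg/kg given 2 times a week. The other 3 tumours came from mice given antibodies against endoglin and were not analysed here, so the text holds no treatment comparison. The 3 tumours were chosen by their labels alone. They are called IgG control 1, 2 and 3, and values of 3 tumours are always given in that order. All rest on 1 cell line, so the spread between them is one between xenografts of the same cells. The labels also give IgG control 2 and 3 the same code number, 5, with a different letter, and IgG control 1 the number 47. They do not say whether 2 and 3 grew in 1 animal, so part of the spread may be technical or within an animal. Age and sex of the mice are not in the labels.

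MPNSTs are sarcomas of peripheral nerve and are thought to arise in the Schwann cell lineage, which descends from the neural crest. They often lose the Ras regulator neurofibromin, the CDKN2A locus and subunits of the polycomb complex PRC2, and many no longer express the Schwann cell proteins S100B and SOX10. Endoglin (ENG) helps receptors of the TGF-beta family bind BMP9, BMP10 and TGF-beta, and is best known from endothelial cells. Nude mice lack a thymus and with it most T cells, but keep other leukocytes, vessels and fibroblasts. Host cells are therefore part of each tumour, and their RNA entered these values only where mouse reads aligned to the human genome.

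Levels are in FPKM, a count of sequenced fragments scaled by transcript length and by library size, so that genes of different length can be set side by side. How library size was scaled here is not given. A gene is called on where it had at least 1 FPKM in each of the 3 tumours, off where it had under 0.1 FPKM in each, and between otherwise. Of 23284 genes in the table, 12025 were on (51.6%), 6553 were off (28.1%) and 4706 were between. A list of genes with about these shares on and off does not stand out from all genes. Rank 1 is the gene with the highest mean. The range of a gene is the difference of the highest and the lowest tumour on log2(FPKM + 1), where 1 is about 2-fold and 2 about 4-fold. This scale understates the differences of low genes. With 1 group of 3 tumours no test was possible, and each statement is a description of these tumours.

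The 3 tumours resembled each other closely over the 12628 genes whose mean reached 1 FPKM. The total depth is unknown. The FPKM value of 1 fragment gave a depth of 1.18 for IgG control 2 and 1.10 for IgG control 3, relative to IgG control 1. These are depths only as far as the scaling of the values followed depth, which is not known. Between 12507 and 12624 genes reached 1 FPKM in a tumour, and 34 to 36 reached 1000 FPKM. Pearson's r of log2(FPKM + 1) across these genes, which are not independent replicates, was 0.968 for IgG control 1 and 2, 0.970 for 1 and 3 and 0.983 for 2 and 3. The pairs differed by at least 1 on that scale in 413, 423 and 179 genes. IgG control 1 thus lay apart from the pair that shares a code number. Its deposited values also summed to more, 443148 FPKM against 413506 and 410786, so that 39.7% of all genes on were highest in it, and 26.95% after scaling to an equal sum.

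**Figure D1:**
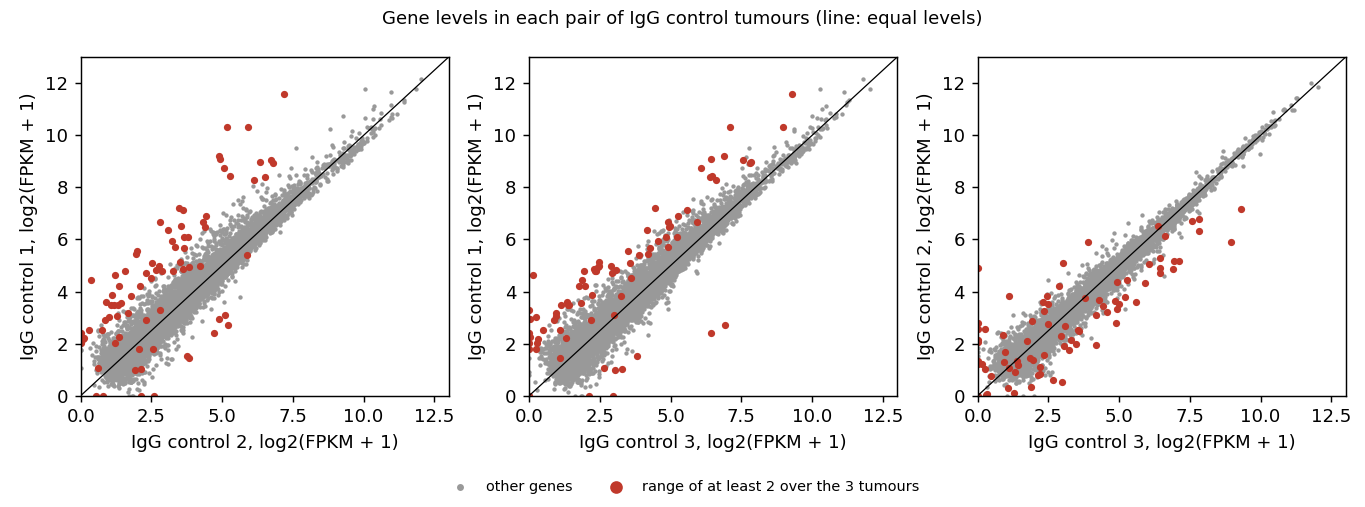
Level of each gene whose mean reached 1 FPKM in each pair of IgG control tumours, both axes log2(FPKM + 1), with the line of equal levels. Red points are the 80 genes with a range of at least 2 over the 3 tumours, which lie mostly above the line in the panels of IgG control 1, where 64 of them had their highest level.

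The genes that the study turns on were all on. ENG had 41.0, 23.9 and 22.1 FPKM, with a mean of 29.0 ± 10.4 FPKM (SD, n = 3) and rank 2862. It was highest in IgG control 1, and IgG control 2 and 3 lay close together. NES, the intermediate filament nestin of neural crest and nerve sheath progenitors, had 64.1, 56.8 and 47.6 FPKM, at rank 1301. TGFB1, the main ligand of the TGF-beta receptors, had 128, 137 and 96.4 FPKM at rank 504, lowest in IgG control 3. VEGFA, the vascular growth factor, had 184, 144 and 189 FPKM at rank 325, lowest in IgG control 2. The ranges of the 4 genes were 0.86, 0.42, 0.50 and 0.39, against a median of 0.287 over the 12628 genes. All 4 were above that median, ENG most.

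The most abundant RNAs included many of ribosomal proteins and several of the cytoskeleton, of class I antigen presentation and of interferon-induced genes. The 50 highest genes of each tumour held 17.7, 17.4 and 16.9% of its summed FPKM (17.3 ± 0.391%, SD, n = 3), and 41 genes were among these 50 in all 3 tumours. B2M, the light chain of class I HLA, ranked first with 4596, 4166 and 3543 FPKM. TMSB4X, the actin-binding thymosin beta 4, followed with 3556, 3662 and 4192 FPKM and was the highest gene of IgG control 3. The glycolytic enzyme gene GAPDH had 2629.7, 2738 and 2509 FPKM, and the actin-severing cofilin gene CFL1 had 2269.6, 2014 and 2327 FPKM. These 4 levels kept within a 1.30-fold span between tumours.

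Ribosomal protein genes made up 10 of the 30 most abundant named genes, among them RPL41, RPS18, RPS27, RPS2, RPL39, RPL8, RPS16 and RPL37A. All 86 genes of this family together took 11.9, 14.8 and 14.2% of the summed FPKM, the least in IgG control 1. RPL41, which encodes the smallest ribosomal protein, led with 2466, 2729 and 2424 FPKM, and RPS16 had 1201, 1266 and 1254 FPKM. The translation factor gene EEF1A1 had 1621, 2035 and 1752 FPKM and TPT1, itself strongly translated in growing cells, had 1807, 2044 and 1819 FPKM.

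Class I HLA heavy chains stood among the highest genes, HLA-B with 3222, 2015 and 2234 FPKM and HLA-C with 2246, 1315 and 1429 FPKM. Both were highest in IgG control 1. These genes are near-identical in part, and the sources used here do not give how shared reads were divided, so single values are uncertain. The interferon-induced genes IFI6 and IFI27 had 2038, 1282 and 1308 FPKM and 1577, 1303 and 1257 FPKM. Mesenchymal cytoskeleton and matrix genes followed. VIM, the intermediate filament vimentin, had 1558, 1914 and 1386 FPKM, ACTB (beta actin) 1829.9, 1571 and 1588 FPKM and TMSB10 (thymosin beta 10) 1291, 1125 and 981 FPKM. The lectin gene LGALS1 had 1578, 1515 and 1428 FPKM, the calcium-binding protein gene S100A6 1039, 1364 and 1174 FPKM, and TGFBI, a matrix protein induced by TGF-beta, 1251, 1162 and 1032 FPKM.

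In 3 of the 30 genes the tumours were uneven, each time with IgG control 1 highest. IL8, the neutrophil-attracting chemokine also called CXCL8, had 3088, 145 and 630.2 FPKM, which put it at ranks 5, 371 and 86 within the tumours. MT2A, a metallothionein that binds zinc and copper, had 3468, 1048 and 1243 FPKM. FTH1, the heavy chain of the iron store ferritin, had 1729.6, 624 and 1011 FPKM. Of the 30, these 3 had a range of at least 1. Without IgG control 1 the mean of IL8 was 388 FPKM, at rank 139, and that of MT2A 1145 FPKM, at rank 27.

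**Figure D2:**
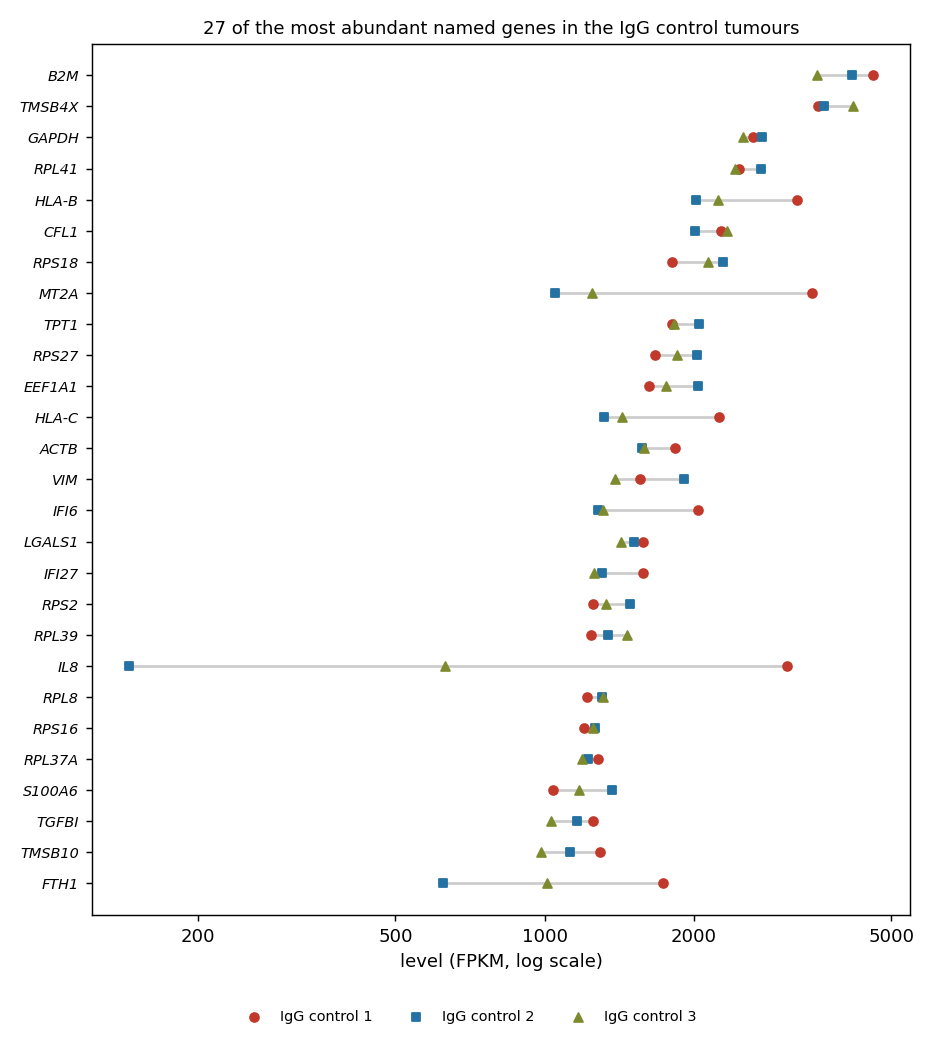
Level of 27 of the 30 most abundant named genes by mean FPKM, on a log axis, with 1 point for each tumour and a line from the lowest to the highest. Most genes keep their tumours close together, while IL8, MT2A and FTH1 spread widely, each highest in IgG control 1.

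Over 15 lists of lineage genes, 83 of 204 genes were on, 40.7% against 51.6% of all genes. The lists differed. The fibroblast and pericyte lists and the neural crest and mesenchymal factors were on whole or nearly so. Skeletal muscle and erythroid genes were not on, and few genes of the cartilage and bone, fat, leukocyte, endothelial and melanocyte lists were. In the Schwann cell list most genes were between.

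Of 20 Schwann cell genes, 5 were on, 4 off and 11 between, that is 25% on against 51.6% of all genes and 20% off against 28.1%. PMP22, a protein of compact myelin that other cells also make, led with 49.6, 39.7 and 40.5 FPKM. MBP, the myelin basic protein, had 6.61, 7.81 and 7.38 FPKM. The adhesion molecule genes L1CAM and NCAM1 had 5.32, 10.6 and 3.77 FPKM and 4.49, 4.78 and 2.64 FPKM, and GAP43, a growth cone protein of immature Schwann cells, had 1.87, 1.06 and 2.84 FPKM. The defining factors were near 0: SOX10, the transcription factor of the Schwann and melanocyte lineages, had 0.0413, 0.0702 and 0.188 FPKM, and S100B had 0.104 FPKM in IgG control 1 and was listed at 0 in the other two. ERBB3, the neuregulin receptor of Schwann cells, had 0, 0.315 and 0.326 FPKM. CDH19, FOXD3, MAG and POU3F1 were off. The labels call the tissue an MPNST; its Schwann cell markers SOX10 and S100B were thus near 0, while NES was on.

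Transcription factors of the neural crest and mesenchyme were on in 16 of 20. PRRX1, a homeobox factor of mesenchyme, led with 101, 81.6 and 54.2 FPKM, highest in IgG control 1. TWIST1 had 31.2, 34.6 and 27.2 FPKM, SNAI2 37.6, 24.9 and 26.6 FPKM and ETS1 26.97, 18.3 and 23.7 FPKM. SOX9, a factor of neural crest and cartilage progenitors, had 24.02, 19.5 and 19.1 FPKM, and TWIST2 had 25.6, 18.9 and 14.8 FPKM. PAX7 and TFAP2B were off and listed at 0. Of the 16 on, 13 were highest in IgG control 1, 81.25% against 39.7% of all genes on. After scaling to an equal sum there were again 13, against 26.95% of all genes on.

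The melanocyte list shares its neural crest origin with Schwann cells and was on in 2 of 10. MC1R, the melanocortin receptor, had 3.40, 3.44 and 2.30 FPKM, and MITF, the master factor of pigment cells, 1.38, 2.34 and 1.83 FPKM. The pigment enzyme genes TYR and DCT and the transporter gene SLC45A2 were off, and PMEL, a protein of the pigment granule, had 0, 0.106 and 0.228 FPKM.

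All 12 fibroblast genes were on. COL1A1, COL3A1 and COL1A2, which encode fibrillar collagens, had 749, 486 and 404 FPKM, 479, 386 and 212 FPKM and 129, 99.8 and 68.5 FPKM. PDGFRA, a PDGF receptor, had 65.8, 31.1 and 27.5 FPKM, and the surface protein gene THY1 30.8, 37.1 and 40.8 FPKM. DCN, the proteoglycan decorin, had 12.9, 48.5 and 22.3 FPKM, highest in IgG control 2. LUM, the related lumican, likewise had 7.49, 33.5 and 7.03 FPKM. Of the 12 genes 7 had a range of at least 1, 58.3% against 4.13% of all genes on. Between IgG control 2 and 3 alone 2 had one, 16.7% against 0.973%. Pericyte genes were on in 7 of 8, led by ANPEP (aminopeptidase N) with 132, 61.3 and 41.8 FPKM, MCAM (CD146) with 72.5, 33.4 and 72.1 FPKM and PDGFRB with 74.2, 52.8 and 35.2 FPKM. ABCC9, NOTCH3 and CSPG4 had 6.69 to 7.42 FPKM, 3.93 to 7.45 FPKM and 1.898 to 5.38 FPKM over the tumours, and KCNJ8 was off. In whole tumours, fewer cells of a type and less RNA per cell cannot be told apart. Nor can tumour cells that express such genes be told apart here from host cells whose reads align.

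Smooth muscle genes were on in 5 of 10. The broadly expressed TPM2 (beta tropomyosin) and MYL9 (a myosin light chain) had 216, 202 and 227 FPKM and 53.7, 54.7 and 53.7 FPKM. SMTN (smoothelin) had 35.2, 17.8 and 19.1 FPKM, ACTA2 (smooth muscle actin) 17.4, 8.12 and 10.49 FPKM and TAGLN (transgelin) 3.44, 3.02 and 3.86 FPKM. The defining MYH11 had 0.531, 0.437 and 0.454 FPKM, and MYOCD, the master factor myocardin, was off. Of 10 skeletal muscle genes 0 were on. MYOG, MYF5 and MYF6, which drive muscle differentiation, and DES (desmin) were off and listed at 0, and MYOD1 had 0, 0 and 0.119 FPKM.

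Epithelial genes were on in 5 of 14. The keratin genes KRT18 and KRT8 had 40.1, 46.9 and 54.0 FPKM and 12.1, 11.6 and 10.9 FPKM, and KRT19 1.13, 1.37 and 1.32 FPKM. The claudin genes CLDN7 and CLDN4 stood at 2.25 to 2.42 FPKM and 1.76 to 2.60 FPKM. CDH1 (E-cadherin), KRT14, ESRP1, GRHL2 and OVOL1 were off. EPCAM and CLDN3, named after their values were seen, were between, with 0.0627 to 0.275 FPKM and 0.186 to 0.316 FPKM. The neuronal list was on in 4 of 12, TUBB3 (a neuronal tubulin) with 18.1, 14.9 and 11.3 FPKM, SNAP25 (a synaptic fusion protein) with 13.1, 4.16 and 4.57 FPKM, and the neurofilament genes NEFM and NEFL with 8.43, 4.45 and 6.42 FPKM and 7.98, 5.07 and 5.95 FPKM. RBFOX3, CHGA, STMN2, ELAVL3, ELAVL4 and DCX were off. All 4 neuronal genes on were highest in IgG control 1, as were 39.7% of all genes on.

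Fat, cartilage and bone lists each held 1 gene on. PPARG, the adipocyte nuclear receptor, had 2.56, 1.77 and 1.24 FPKM, while ADIPOQ, LEP and LPL were off. RUNX2, the osteoblast factor, had 6.80, 6.402 and 6.74 FPKM, while SP7, BGLAP, IBSP, ALPL, ACAN, COL2A1 and COMP were off. All 5 erythroid genes were off, among them HBA1, HBA2, HBB and ALAS2.

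Endothelial genes were on in 2 of 13. ROBO4, a guidance receptor of endothelium, had 4.53, 2.62 and 3.51 FPKM, and PECAM1 (CD31) 2.15, 1.53 and 1.62 FPKM. VWF, CLDN5, PLVAP and KDR were off, and CDH5, the endothelial cadherin, had 0.0287, 0.341 and 0.0783 FPKM. CDH5 was 1 of 7 genes of the list that were between, as was TEK, at a mean of 1.81 FPKM. ENG stood at 22.1 FPKM or more in each tumour, and the part of endothelial cells in its level was not tested. Leukocyte genes were on in 3 of 15. CD68, a lysosomal protein that macrophages make in quantity and other cells also make, had 115, 58.4 and 61.9 FPKM. LYZ (lysozyme) had 2.81, 1.72 and 2.27 FPKM and CSF1R, the receptor of CSF1, 2.16, 1.79 and 1.59 FPKM. PTPRC (CD45), which all leukocytes carry, had 0.342, 0.560 and 0.765 FPKM. AIF1, CD163, FCGR3A, CD3E, CD8A, MS4A1 and NKG7 were off.

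**Figure D3:**
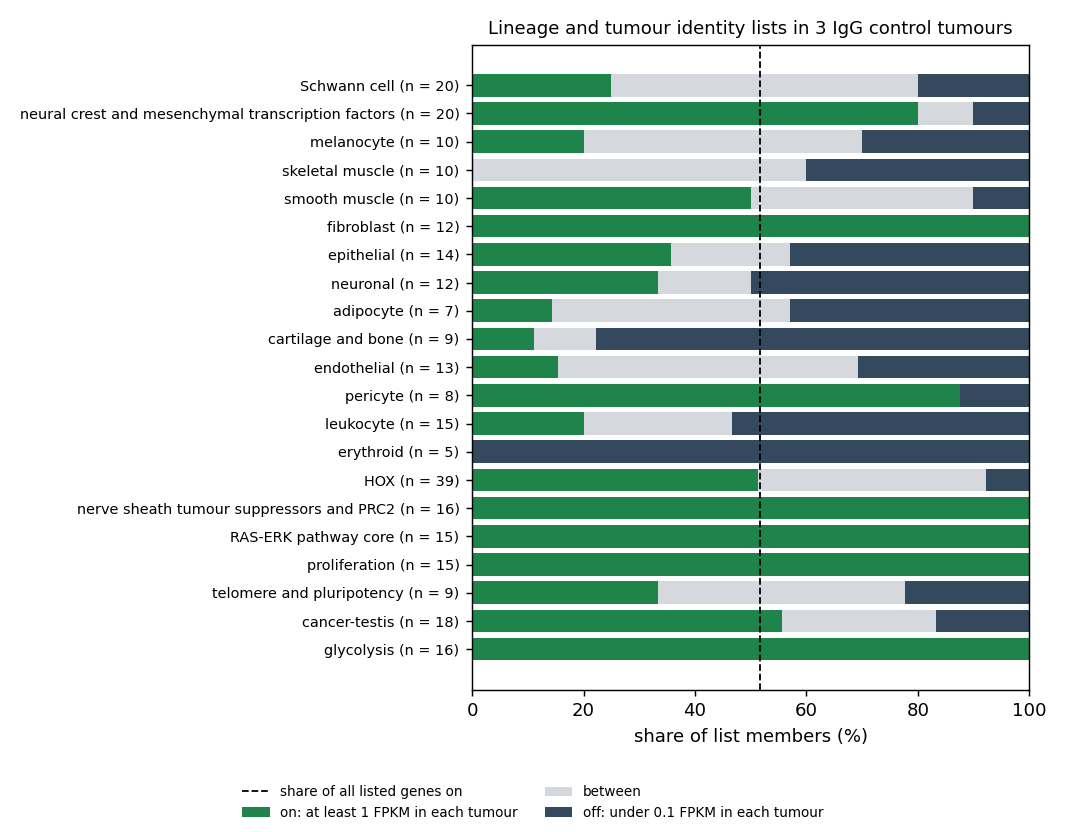
Share of the genes of each lineage and tumour list that were on, between or off in the 3 IgG control tumours, in percent of the list. The dashed line marks the 51.6% of all genes that were on. Lists of fibroblast, suppressor, RAS-ERK, proliferation and glycolysis genes were on whole, and skeletal muscle and erythroid lists had no gene on.

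In 6 lists of tumour identity genes, 75 of 89 were on, 84.3% against 51.6% of all genes. None of the 75 had a range of 1 or more, against 4.13% of all genes on. These genes were the most even of the 4 kinds described, with a median range of 0.25 against 0.28 over all genes on.

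All 16 genes of nerve sheath tumour suppressors and PRC2 were on. CDKN2A, whose locus encodes the cell cycle inhibitor p16 and the protein ARF, was the highest with 222, 236 and 194 FPKM. A gene level does not separate these transcripts. Its neighbours CDKN2B, which encodes the inhibitor p15, and MTAP, an enzyme of methionine salvage, had 19.1 to 25.95 FPKM and 19.7 to 20.9 FPKM. NF1, which encodes neurofibromin, had 10.3, 10.4 and 11.22 FPKM. Of PRC2, the histone methyltransferase gene EZH2 had 24.8, 18.8 and 22.8 FPKM, the scaffold gene SUZ12 16.3, 15.5 and 14.7 FPKM and the H3K27me3 reader gene EED 7.16, 7.28 and 8.13 FPKM. The histone-binding RBBP7 had 97.6 to 119 FPKM, the chromatin remodeller gene SMARCB1 39.9 to 43.2 FPKM, RB1 (the retinoblastoma protein) 25.6 to 33.0 FPKM and LZTR1, an adaptor in RAS degradation, 22.0 to 25.5 FPKM. An RNA level says nothing of a mutation or of the protein.

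The RAS-ERK core was on in 15 of 15. The adaptor gene SHC1 led with 83.2, 81.6 and 62.4 FPKM, and the kinase gene MAP2K2 (MEK2) had 63.2, 67.0 and 65.7 FPKM. Of the small GTPase genes RRAS had 43.6 to 54.8 FPKM, NRAS 34.5 to 37.2 FPKM and HRAS 29.7 to 36.7 FPKM. The kinase gene ARAF had 31.3 to 34.1 FPKM.

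Proliferation genes were on in 15 of 15. CCND1 (cyclin D1) had 418, 243 and 323 FPKM and PCNA, the sliding clamp of replication, 89.0, 93.2 and 106 FPKM. The mitotic genes TPX2, CCNB1, CDK1 and TOP2A had 44.6 to 49.6 FPKM, 43.1 to 48.5 FPKM, 40.9 to 46.1 FPKM and 39.5 to 44.999 FPKM. Except for CCND1, these values lay within a 1.19-fold span. All 16 glycolysis genes were on, 9 of them at 100 FPKM or more in each tumour. After GAPDH, ENO1 (enolase) had 777, 725 and 778 FPKM, TPI1 (triosephosphate isomerase) 729.8, 623 and 598 FPKM, and LDHA, which makes lactate, 527, 483 and 509 FPKM. Of the telomere and stem cell list 3 of 9 were on. DKC1 (dyskerin) had 54.3, 54.4 and 67.4 FPKM, ATRX, whose loss accompanies the alternative lengthening of telomeres, 18.5, 20.3 and 22.2 FPKM and POU5F1 3.13, 2.36 and 2.46 FPKM. TERT, the catalytic subunit of telomerase, had 0.866, 0.701 and 1.02 FPKM. LIN28A and PROM1 were off.

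Cancer-testis genes, which normal tissue outside the testis rarely expresses, were on in 10 of 18. PAGE5 had 231, 256 and 249 FPKM, MAGEC2 98.8, 96.2 and 100.2 FPKM and PRAME 54.7, 59.3 and 51.9 FPKM. MAGEA10 had 49.0, 49.9 and 65.1 FPKM, and the near-identical MAGEA3 and MAGEA6, whose shared reads may be split uncertainly, had 46.6, 46.7 and 50.9 FPKM and 36.9, 38.3 and 39.4 FPKM. The levels of the tumours differed little, with a median range of 0.17 over the 10. GAGE1, SSX2 and XAGE1B were off.

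HOX genes record the position of a cell's origin along the body axis. Of 39 in the list, 20 were on: 8 of 11 in the A cluster, 6 of 10 in B, 3 of 9 in C and 3 of 9 in D. That share, 51.3%, was close to the 51.6% of all genes. It depended on IgG control 1: without that tumour 27 of the 39 were on, while the count over all genes went from 12025 to 12278. HOXB7 led with 13.2, 16.3 and 16.9 FPKM, then HOXB2 with 15.5, 12.3 and 12.1 FPKM, HOXB3 with 11.0, 10.8 and 10.6 FPKM and HOXA10 with 8.73, 11.4 and 9.20 FPKM. HOXB6 and HOXD4 had 4.38 to 5.79 FPKM and 2.91 to 3.88 FPKM. HOXD1, HOXD11 and HOXD12 were off.

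Of 306 genes for secreted factors, 142 were on, 46.4% against 51.6% of all genes. They were the least even kind. Their median range was 0.76, against 0.28 over all genes on, and 53 of the 142 had a range of at least 1, that is 37.3% against 4.13%. With IgG control 1 left out the count was 20, 14.1% against 0.973% of all genes on, in a range of 2 tumours that is smaller by construction. IgG control 1 had the highest level of 97 of the 142, 68.3% against 39.7% of all genes on. After scaling to an equal sum it had that of 90, 63.4% against 26.95%.

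Of 32 TGF-beta family ligands 10 were on. After TGFB1, the activin subunit gene INHBA had 52.7, 16.1 and 34.7 FPKM, BMP4 28.3, 39.2 and 36.0 FPKM and BMP2 38.2, 14.5 and 12.8 FPKM. INHBA was highest in IgG control 1 and lowest in IgG control 2. GDF15, a stress-induced member, had 5.78 to 15.2 FPKM, and TGFB3 5.42 to 6.76 FPKM. GDF2, which encodes BMP9, the ligand that binds endoglin most directly, was off and listed at 0, and 11 other ligands were off, among them MSTN, LEFTY1 and BMP10. The share of these ligands on was 31.25% against 51.6% of all genes, and the share off 37.5% against 28.1%. Of 16 extracellular regulators 8 were on, 50% and so near the 51.6% of all genes. LTBP3, LTBP1 and LTBP4, which hold TGF-beta latent in the matrix, had 192, 169.8 and 163 FPKM, 51.5, 44.5 and 33.6 FPKM and 34.8, 36.1 and 32.3 FPKM. FSTL1 (a follistatin relative) had 112, 76.4 and 85.7 FPKM, and the BMP antagonist gene NBL1 73.1, 26.5 and 22.2 FPKM. TWSG1 had 14.0 to 21.8 FPKM. FST (follistatin), SOST and CHRD (chordin) were off.

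Angiogenic factors were on in 8 of 14. After VEGFA, the peptide hormone gene ADM (adrenomedullin) had 73.8, 48.1 and 41.3 FPKM, and THBS1 (thrombospondin 1), an inhibitor of angiogenesis, 44.8, 38.6 and 49.5 FPKM. VEGFB had 36.9 to 45.4 FPKM, ANGPTL4 21.6 to 36.7 FPKM and VEGFC 17.3 to 22.8 FPKM. FIGF (VEGFD) was off. ANGPT2, mainly known as an antagonist of ANGPT1 at the receptor TEK, had 0.0926, 0.0197 and 0.148 FPKM. Of 26 PDGF and FGF ligands 3 were on, 11.5% against 51.6% of all genes. PDGFC had 15.6, 20.0 and 20.5 FPKM, PDGFA 16.9, 10.3 and 7.46 FPKM and FGF1 3.82, 4.55 and 2.35 FPKM. Of the 26, 10 were off, all FGF genes, 38.5% against 28.1% of all genes. The EGF family was on in 4 of 11, with EREG (epiregulin) at 52.9, 23.3 and 24.5 FPKM and HBEGF at 29.3, 9.59 and 12.1 FPKM. NRG1 and NRG2 stood at 2.56 to 4.77 FPKM and 1.63 to 2.53 FPKM, and NRG3 was off.

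Of other ligands of receptor kinases 9 of 14 were on. CSF1, the growth factor of macrophages, had 93.6, 29.4 and 44.96 FPKM, and HGF, the ligand of MET, 51.4, 37.9 and 43.2 FPKM. GAS6, the ligand of AXL, had 23.02, 39.9 and 20.0 FPKM. The ephrin genes EFNA1, EFNB1 and EFNB2 had 14.1 to 32.5 FPKM, 10.8 to 23.3 FPKM and 13.4 to 18.5 FPKM. IGF1 and IGF2 did not reach 1 FPKM in a tumour, with 0, 0.212 and 0.115 and 0.757, 0.768 and 0.622 FPKM. Of 10 neurotrophic factors 4 were on. MDK (midkine) and PTN (pleiotrophin), heparin-binding factors that drive neurite growth, had 371, 309 and 258 FPKM and 233, 177 and 174 FPKM. ARTN and GDNF, ligands of RET with its co-receptors, had 3.82 to 5.13 FPKM and 1.29 to 3.20 FPKM, and NTF3 was off.

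The cytokines related to IL6 and the colony-stimulating factors were on in 7 of 11. Their median range of 3.53 was the largest of the secreted lists over the 3 tumours. Without IgG control 1 it was 0.979, below the 1.12 of the chemokines. IL6 had 1269, 35.3 and 137 FPKM, CSF3, the growth factor of neutrophils, 587, 28.5 and 119 FPKM, and CSF2, that of myeloid cells, 139, 11.1 and 46.8 FPKM. In each of these IgG control 1 was highest and IgG control 2 lowest. IL11 had 149, 10.0 and 20.7 FPKM and LIF 119, 20.7 and 37.8 FPKM, in the same order, and CLCF1 14.6, 9.76 and 11.7 FPKM. Of 44 interleukins and TNF family ligands 18 were on. IL1B had 542, 29.3 and 85.8 FPKM. TNFSF10 (TRAIL), with 147, 114 and 117 FPKM, and CD70, with 41.6, 37.5 and 46.2 FPKM, were more even. IL32 had 129, 72.8 and 101 FPKM, TNFSF12 (TWEAK) 9.70 to 13.5 FPKM and IL1A 26.6, 1.99 and 4.05 FPKM. IL2, IL5, IL17A, IL21, IL22, IL25 and IL26, mostly products of T cells, were off.

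Chemokines were on in 16 of 43, 11 of them with a range of at least 1, that is 68.75% against 4.13% of all genes on. After IL8, CCL2, which draws monocytes, had 1199.8, 446 and 658 FPKM and CXCL1, which draws neutrophils, 1288, 59.0 and 495 FPKM. The interferon-induced CXCL10 and CXCL11 had 203, 107 and 136 FPKM and 81.8, 51.2 and 57.0 FPKM, and CXCL5 had 102, 19.0 and 59.7 FPKM. CXCL9, which interferon gamma induces with CXCL10, was off, as were PPBP, CXCL13, CXCL17, CCL14, CCL15, CCL16, CCL18, CCL21, CCL23 and CCL25. Of the 16 on, 12 were highest in IgG control 1 before and after scaling to an equal sum. That is 75%, against 39.7% of all genes on before scaling and 26.95% after it. The 15 leukocyte genes also summed to most in this tumour, with 122, 64.0 and 67.9 FPKM, of which CD68 held most, while PTPRC was lowest in it. Their part in the cytokine levels was not tested.

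WNT and hedgehog ligands were on in 6 of 22. WNT5A, which signals largely without beta-catenin, had 57.6, 26.3 and 24.7 FPKM, WNT7B 24.2, 22.7 and 30.2 FPKM and WNT9A 20.7, 27.4 and 15.8 FPKM. WNT5B, WNT6 and WNT3 had 5.20 to 7.30 FPKM, 2.23 to 5.56 FPKM and 1.11 to 1.51 FPKM. WNT1, WNT2, WNT4, WNT8A, WNT8B, WNT9B and IHH were off. Of 10 secreted WNT antagonists DKK3 had 131, 86.0 and 72.4 FPKM, SFRP1 29.6, 29.8 and 27.1 FPKM, SFRP2 1.902, 12.6 and 12.9 FPKM and DKK1 3.74, 6.24 and 8.96 FPKM, and FRZB, SFRP4, DKK4 and WIF1 were off.

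Matrix genes were on in 25 of 27. After TGFBI, the collagen VI genes COL6A2 and COL6A1 had 1143, 766 and 657 FPKM and 865, 633 and 534 FPKM. SPARC, a collagen-binding glycoprotein, had 654, 558 and 423 FPKM, and FN1 (fibronectin) 513, 467 and 477 FPKM. Of the 25, 20 were highest in IgG control 1, 80% against 39.7% of all genes on. After scaling to an equal sum there were 17, 68% against 26.95%. Proteases and their inhibitors were on in 20 of 26. CST3 (cystatin C) had 518, 578 and 394 FPKM, and the gelatinase gene MMP2 438, 325 and 360.0 FPKM. MMP14, a membrane protease that activates MMP2, had 569, 289 and 204 FPKM, and the collagenase gene MMP13 502, 79.8 and 228 FPKM. SERPINE2 and TIMP1, which inhibit serine proteases and metalloproteases, had 428, 174 and 182 FPKM and 298, 213 and 203 FPKM. A2M and MMP8 were off, and MMP9, the other gelatinase, had 0.0506, 0.0430 and 0.231 FPKM.

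Of 288 receptor genes 153 were on, 53.1% against 51.6% of all genes, and 50 were off, 17.4% against 28.1%. Their median range was 0.42, and 23 had a range of at least 1 (15.03% against 4.13%). Without IgG control 1 the count was 4, 2.61% against 0.973% of all genes on.

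In the TGF-beta family 10 of 15 receptors were on. The type II receptor gene TGFBR2 had 49.0, 52.3 and 43.2 FPKM, above ENG, and the type I receptor gene TGFBR1 27.3, 20.7 and 19.7 FPKM. ACVR1, BMPR1A and BMPR2, which serve BMPs, had 19.2, 16.3 and 14.6 FPKM, 10.9, 10.7 and 9.51 FPKM and 9.37, 8.53 and 7.66 FPKM. ACVRL1 (ALK1), the type I receptor that pairs with endoglin for BMP9 in endothelium, was off, at no more than 0.0287 FPKM. AMHR2 was off too. ENG was thus on while both its preferred ligand gene GDF2 and its partner receptor gene ACVRL1 were off.

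Receptor tyrosine kinases were on in 23 of 58, 39.7% against 51.6% of all genes. PDGFRB led, then AXL with 50.9, 44.7 and 49.8 FPKM, PDGFRA, MET with 34.3, 26.7 and 34.4 FPKM, DDR1, a collagen receptor, with 26.3, 27.1 and 24.9 FPKM, and RYK, a WNT receptor, with 23.04, 28.3 and 25.8 FPKM. EGFR, named outside the rule for its ligands, had 24.9, 16.6 and 13.9 FPKM. KIT, FLT3, RET, INSR, INSRR, FGFR3, NTRK3, KDR, EPHA1 and EPHA8 were off. ERBB2, which is named outside the rule too, had 0.672, 0.342 and 0.224 FPKM.

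Cytokine receptors were on in 24 of 38. The interferon gamma receptor genes IFNGR2 and IFNGR1 had 84.6, 40.0 and 40.8 FPKM and 35.6, 40.4 and 37.3 FPKM. IL13RA1 had 59.2, 44.6 and 55.7 FPKM, OSMR 76.3, 31.2 and 50.2 FPKM, and IL6ST (gp130), the shared signal chain of the IL6 family, 41.5, 27.6 and 40.5 FPKM. IL1R1 had 44.6, 21.6 and 29.9 FPKM. CSF3R, CSF2RA, CSF2RB, IL2RA, IL1RL1 and IL20RA were off. Of the TNF receptor family 17 of 22 were on, led by TNFRSF21 (death receptor 6) with 186, 119 and 122 FPKM and TNFRSF12A (FN14) with 153, 118 and 127 FPKM. LTBR, TNFRSF1A, TNFRSF19 and TNFRSF10B had 66.2 to 81.3 FPKM, 54.6 to 69.7 FPKM, 45.3 to 57.8 FPKM and 36.2 to 54.4 FPKM, and EDAR was off.

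Of 23 chemokine receptors 2 were on, CCR1 with 6.59, 5.90 and 6.12 FPKM and CCRL2 with 1.11, 1.47 and 1.01 FPKM, that is 8.70% against 51.6% of all genes, while 16 of 43 chemokines were on. The count was 4 without IgG control 1 and 5 where on meant 0.5 FPKM. A further 10 were between, among them CXCR7, which binds CXCL12, with 4.62, 0.526 and 2.05 FPKM. CXCR1, CXCR2, CXCR3, CCR2, CCR4, CCR8, CCR9, CX3CR1 and XCR1 were among the 11 that were off, 47.8% against 28.1% of all genes.

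Integrins were on in 13 of 26, 50% and so near the 51.6% of all genes. ITGB1, the beta chain shared by most collagen, laminin and fibronectin receptors, had 482, 413 and 391 FPKM, and the fibronectin receptor chain gene ITGA5 112, 74.1 and 65.7 FPKM. ITGB5, ITGAV, ITGA3 and ITGA6 had 48.4 to 55.5 FPKM, 41.9 to 53.3 FPKM, 43.8 to 51.5 FPKM and 24.1 to 32.4 FPKM. ITGA2B of platelets, ITGAL of leukocytes, ITGA9 and ITGAD were off. WNT, hedgehog and Notch receptors were on in 12 of 19. FZD8 had 56.7, 41.7 and 32.3 FPKM, FZD6, LRP5, FZD7 and FZD1 had 16.3 to 18.6 FPKM, 13.6 to 17.8 FPKM, 11.3 to 22.4 FPKM and 6.84 to 26.8 FPKM, and NOTCH2 had 19.2 to 25.3 FPKM. FZD10 was off. Neuropilins and plexins, which read semaphorins, were on in 10 of 11. NRP1, also a co-receptor of VEGFA, had 81.4, 70.1 and 71.7 FPKM. PLXNA1, PLXNB2, NRP2, PLXND1 and PLXNB3 had 30.1 to 33.1 FPKM, 22.2 to 26.2 FPKM, 10.7 to 19.7 FPKM, 10.9 to 13.1 FPKM and 6.94 to 13.8 FPKM.

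Receptors of proteases, lipids and peptides were on in 18 of 28. PLAUR, the urokinase receptor, had 141, 55.8 and 54.1 FPKM, and EDNRA, an endothelin receptor, 60.3, 61.4 and 42.4 FPKM. F2RL1 and F2R, which proteases such as trypsin and thrombin cleave, had 35.8, 39.7 and 32.0 FPKM and 24.3, 30.5 and 27.2 FPKM, the lysophosphatidic acid receptor gene LPAR1 16.1 to 26.3 FPKM, and the bradykinin receptor gene BDKRB2 10.1 to 31.3 FPKM. PTGER3, S1PR5 and ADORA3 were off. Nuclear receptors were on in 24 of 48, 50% and so near the 51.6% of all genes. NR1H2 (LXR beta) had 47.8, 43.5 and 41.0 FPKM, NR2F6 35.1, 43.2 and 43.1 FPKM and NR3C1, the glucocorticoid receptor, 36.7, 24.97 and 26.7 FPKM. ESRRA, RXRB and NR2C2 had 23.2 to 29.99 FPKM, 15.3 to 19.0 FPKM and 12.2 to 17.2 FPKM. PGR, the progesterone receptor, was off, as were 11 others, among them HNF4A, NR1H4 and NR5A1.

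Ligands were set against their receptors in 76 pairs. Both genes were on in 33 pairs. In 11 the ligand was on and the receptor off, and in 8 the ligand was on and the receptor between. In 12 the receptor was on and the ligand between, and GDF2 with ENG was the 1 pair with the receptor on and the ligand off. In 11 pairs neither was on. Pairs share genes and are not independent of each other. They were not set against other pairs of genes, so the counts describe these 76 pairs only.

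Among pairs with both on were TGFB1 with TGFBR1 and TGFBR2, HGF with MET, GAS6 with AXL, PDGFA and PDGFC with PDGFRA, HBEGF and EREG with EGFR, IL6 with IL6ST, LIF with LIFR and IL1B with IL1R1. For HGF and MET the mean levels were 44.2 and 31.8 FPKM. The pairs with a ligand on and a receptor off included VEGFA with KDR, KITLG with KIT, GDNF with RET, CSF3 with CSF3R, CSF2 with CSF2RA, IL8 with CXCR1 and CXCR2, CXCL1 with CXCR2, CCL2 with CCR2 and CX3CL1 with CX3CR1. Most of these receptors are known from leukocytes, endothelium or other host cells, whose mouse RNA was not measured separately. VEGFA also pairs with FLT1 and NRP1, both on, at a mean of 6.70 and 74.4 FPKM. IL6 had gp130 on, while IL6R, the receptor chain that binds IL6 itself, was between with 0.677, 0.523 and 1.11 FPKM.

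**Figure D4:**
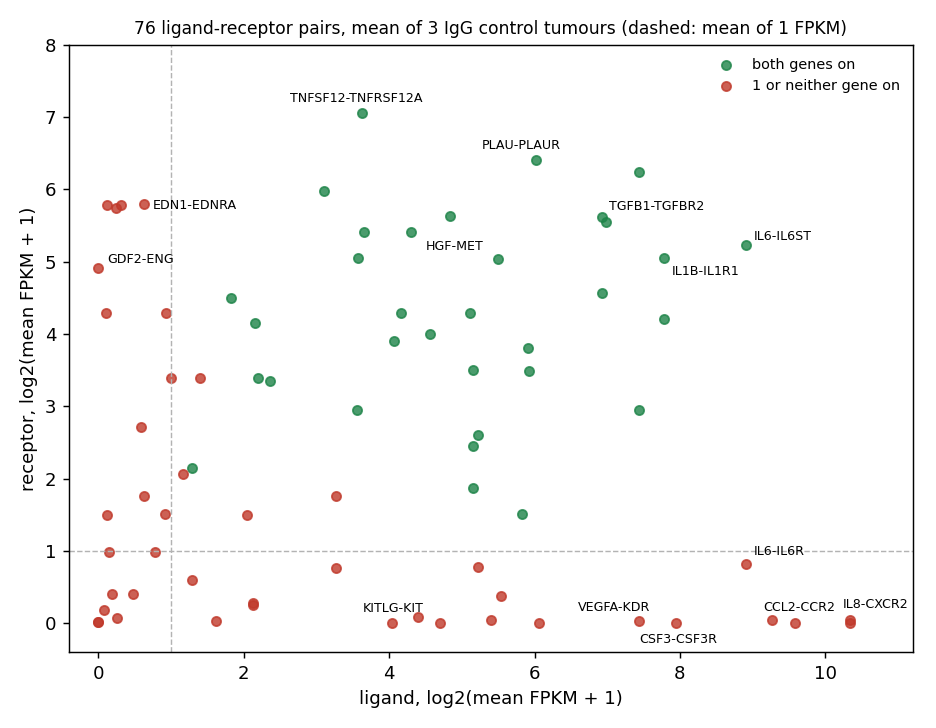
Mean level of the receptor against mean level of the ligand for 76 pairs, both axes log2(mean FPKM + 1). Green points are the 33 pairs with both genes on, red points the others. A row of red points at the foot of the plot holds abundant ligands such as IL8, CCL2, CSF3 and VEGFA with a receptor near 0, and GDF2 with ENG stands at the left edge.

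Between the 3 tumours, 80 of the 12628 genes, 0.634%, had a range of at least 2, and 674, 5.34%, one of at least 1. IgG control 1 had the highest level in 64 of the 80, that is 80% against 39.3% of the 12628 genes, and IgG control 2 and 3 in 8 each. Scaled to an equal sum the count was 72, with 55 highest in IgG control 1. The count rested on that tumour: it was 16 without IgG control 1, 42 without IgG control 2 and 57 without IgG control 3.

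The largest range, 5.13, was that of IL6. Of the 20 genes with the largest range 17 were highest in IgG control 1, and 15 of these were lowest in IgG control 2. Among the 15 were IL6, CXCL1, IL8, CSF3, IL1B, IL11, CSF2 and IL1A, whose values are given above. Without IgG control 1 the mean of IL6 was 85.9 FPKM, against 480.1, and that of CYTL1 0.707, against 8.48. CCL20 had 102, 5.99 and 28.8 FPKM, CXCL2 80.5, 7.60 and 17.1 FPKM and CXCL3 45.6, 2.96 and 10.2 FPKM. TNFAIP6, a hyaluronan-binding protein of inflamed tissue, had 432, 32.1 and 65.7 FPKM, and PTX3, a soluble pattern receptor, 344, 37.7 and 86.5 FPKM. The protease gene MMP3 had 20.9, 0.275 and 2.65 FPKM, and the protease inhibitor gene PI3 (elafin) 42.3, 2.90 and 17.3 FPKM, in the same order of tumours. CYTL1, a secreted protein of cartilage and marrow cells, had 24.01, 1.31 and 0.108 FPKM.

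S100A9 and S100A8, the chains of calprotectin, went the other way, with 5.54, 35.5 and 121 FPKM and 4.30, 24.98 and 85.5 FPKM. They were highest in IgG control 3 and lowest in IgG control 1. Calprotectin is abundant in neutrophils and monocytes and is also made by epithelium. Among genes named after their values were seen, CD53, a leukocyte surface protein, had 0.302, 0.962 and 3.44 FPKM, and LCP1, the leukocyte plastin, 28.9, 9.04 and 36.3 FPKM. PTPRC was at 0.342, 0.560 and 0.765 FPKM, in the same order as S100A9. The 3 genes of the leukocyte list that were on, CD68, LYZ and CSF1R, were instead all highest in IgG control 1. A list of 16 neutrophil and calprotectin-type genes was drawn up after their values were seen, so its shares only describe it. Of these 16 genes 4 were on, 25% against 51.6% of all genes: S100A9, S100A8, LCP1 and CAMP. Between were S100A7, S100A12, LCN2, CD53 and ITGB2. The other 7, MPO, ELANE, CXCR2, CSF3R, FCGR3B, LTF and CD177, were off, 43.75% against 28.1% of all genes. The part of host or other leukocytes in these levels was not tested. S100A7 (psoriasin), at 0, 0.458 and 6.87 FPKM, CCL11 (eotaxin), at 1.02, 3.37 and 8.74 FPKM, and SFRP2 were the other three of the 5 largest ranges with the highest level in IgG control 3.

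In IgG control 2 the 5 largest were SPANXD, TPPP3, LUM, CRIP1 and QPRT. SPANXD, a cancer-testis gene of a family of near-identical copies, had 6.77, 29.0 and 0.0154 FPKM, and its reads may have been divided differently among copies in each tumour. TPPP3, a tubulin-binding protein, had 1.70, 13.4 and 1.14 FPKM. CRIP1, a small LIM domain protein, had 40.8, 58.2 and 13.8 FPKM, and QPRT, an enzyme of NAD synthesis, 11.7, 20.9 and 4.58 FPKM. LUM stood with DCN, which was also highest in IgG control 2. The 12 fibroblast genes summed to 1571, 1215 and 860.1 FPKM, but COL1A1 and COL3A1 alone held most of each sum. Of the 12, 7 were highest in IgG control 1, 3 in IgG control 2 and 2 in IgG control 3. The part of fibroblast content in LUM and DCN was not tested. ATP5J2-PTCD1, a read-through transcript that overlaps ATP5J2 and PTCD1, had 8.75, 5.96 and 0.000663 FPKM, which is uncertain because the reads of its parent genes cannot be told apart from its own.

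**Figure D5:**
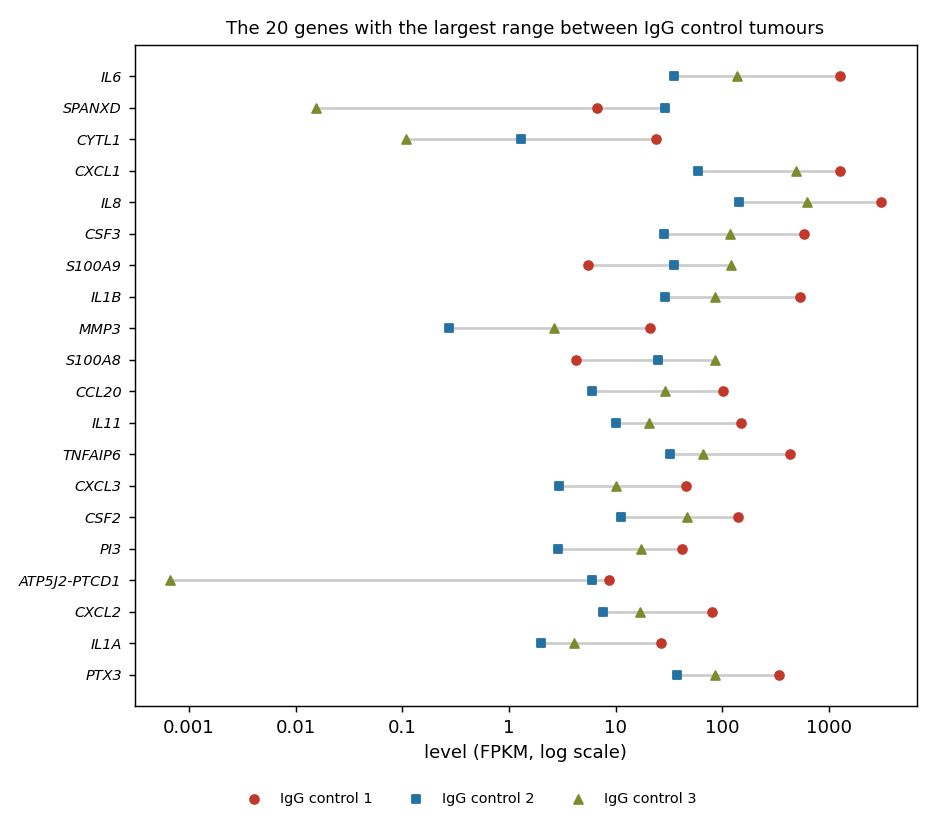
Level of the 20 genes with the largest range between the IgG control tumours, in FPKM on a log axis, with 1 point for each tumour and a line from the lowest to the highest. IgG control 1 is at the right end for most, at the left end for S100A8 and S100A9, and IgG control 2 is the highest for SPANXD.

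At the other end, 10 genes whose mean reached 50 FPKM were nearly equal in the tumours. RPL23A, a ribosomal protein gene, had 472, 471 and 471 FPKM, and TUBB, a beta tubulin, 447, 441 and 447 FPKM. PRDX1, a peroxide-reducing enzyme, had 202, 203 and 199 FPKM, and HNRNPF, a splicing regulator, 103, 103 and 102 FPKM. ZNF207, MTCH1, PPP2R4, GPS2, WDR46 and UFM1 had 72.1 to 72.6, 80.1 to 80.8, 54.0 to 54.5, 58.3 to 59.0, 63.9 to 64.7 and 63.9 to 65.1 FPKM over the tumours. The range of each of the 10 was at most 0.03. These genes were picked as the smallest of many, so their evenness describes these 3 tumours only.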

How the data were processed

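Polyadenylated RNA of xenograft tumours was sequenced. The authors deposited 1 table of FPKM values by gene symbol, made with Cufflinks 2.2.1, Cuffnorm, TopHat2 2.0.10, FastQC 0.10.1, SAMtools 0.1.1.9 and Bowtie 1.0.0 on the human build hg19 (GRCh37), per the submitters' processing notes. The labels' protocols name 2 library kits and 2 instruments, without saying which served which sample. Strand use, the annotation, Cuffnorm's scaling and the handling of mouse reads are not given in the sources used here. Symbols are human, although the organism in the labels is mouse.

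Only the 3 IgG control columns were used, grouped by title. Levels, ranks, ranges on log2(FPKM + 1) and Pearson correlations were computed in Python 3.11.15 with pandas 2.3.3 and numpy 2.4.6, and plotted with matplotlib 3.10.9. The range step was tested on simulated data. Relative depth came from the step of 1 fragment in genes at or under 0.05 FPKM. There was no count test.

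The members and 45 gene lists (868 genes) were chosen with earlier results of these data known, and 5 more lists after their values were seen. CTAG1B and SPANXB1 were not found. The text names ENG, NES, TGFB1 and VEGFA, the 30 genes of highest mean, up to 6 members on per list and its defining members that were off, the 20 largest ranges, the 5 largest highest in each tumour, and the 10 smallest at a mean of at least 50 FPKM. Unnamed loci, small RNAs and pseudogenes were passed over, a few genes it would name are not reported here, and other members are named for comparison after their values were seen. Alternatives covered the on threshold, pseudocount, filter, scaling, averaging tumours of 1 code number and leaving out each tumour. The off threshold was not varied. No human sequence was used here.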

Additional observations from a re-analysis of the deposited data

How the results depend on the processing

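Of the 47 values of whole-transcriptome results and counts recomputed under the alternatives, 34 stayed within the limits set for them and 13 moved. The number of pairs with both genes on was 20 where on meant 5 FPKM. The lowest correlation between tumours, 0.968, was 0.960 at a pseudocount of 0.1, 0.984 with no filter and 0.957 at a minimum mean of 5 FPKM, and 0.968 to 0.983 with 1 tumour left out. The count of genes with a 4-fold range, 80, was 214 at a pseudocount of 0.1, 53 at a minimum mean of 5 FPKM and 33 with the tumours of 1 code number averaged. With 1 tumour left out it was 16 to 57. The median range, 0.287, was 0.177 with those tumours averaged and 0.142 to 0.196 with 1 left out. A range over fewer tumours is smaller by construction. With 1 tumour left out, the mean of 26 of 70 named genes moved by over 1.5 times, 18 of them without IgG control 1, 4 without IgG control 2 and 4 without IgG control 3. Of the counts of list members on, 274 of 300 stayed within 1.5 times. The 26 that moved did so where on meant 0.5 or 5 FPKM, and for chemokine receptors also without IgG control 1. The counts of genes on with a range of at least 1 in the lineage, tumour, secreted and receptor lists without IgG control 1, the median ranges of lists without it and the number highest in it after scaling were chosen after seeing the data. No paired analysis was possible because the values describe 1 group and come from no test. Total depth is unknown, so levels near 0 cannot be given a counting error.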

Other observations

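Lists of 5 further gene groups were drawn up after their values had been seen and are given as values. Of 26 interferon-stimulated genes all were on, 12 of them at 100 FPKM or more in each tumour. Beside IFI6 and IFI27, the antiviral membrane protein genes IFITM3 and BST2 had 1079.8, 916 and 893 FPKM and 599.8, 572 and 582 FPKM, and the ubiquitin-like ISG15 612, 453 and 502 FPKM. Of 10 genes for the interferons themselves 1 was on, IFNE, with 7.06, 7.09 and 7.17 FPKM, and IFNB1 had 0.282, 0.359 and 0.128 FPKM. IFNG was off. Reads of nearly identical interferon alpha copies are uncertain. The receptors were on, with IFNAR1 at 15.1, 11.7 and 13.8 FPKM.

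Of 20 genes of antigen presentation 17 were on. The peptide transporter gene TAP1 had 181, 116 and 135 FPKM, and the immunoproteasome genes PSMB9 and PSMB8 had 210.4, 155 and 155 FPKM and 145, 125 and 129 FPKM. Class II genes went the other way across tumours, with HLA-DRA at 7.01, 14.2 and 16.0 FPKM and CD74 at 102, 135 and 158 FPKM, each lowest in IgG control 1, where class I genes were highest. CIITA, the class II regulator, had 1.32, 1.14 and 1.899 FPKM. The 13 acute phase and NF-kappaB feedback genes were all on. Of these 12 had a range of at least 1, 92.3% against 4.13% of all genes on. Without IgG control 1 there were 4, 30.8% against 0.973%. SOD2 had 484, 110.4 and 224 FPKM, the inhibitor gene NFKBIA 277, 84.5 and 122 FPKM, the adhesion gene ICAM1 199.8, 52.3 and 76.3 FPKM and PTGS2, the inducible cyclooxygenase, 24.9, 6.24 and 6.91 FPKM. SAA1 departed from this order, with 83.0, 22.9 and 94.6 FPKM, and is a near-copy of SAA2.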
